A study of Mus musculus with 10 samples.

Results

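The 38 genes described here are markers of microglia and other tissue phagocytes, measured in the cerebral cortex of young mice that lacked the deubiquitinating enzyme Usp7 in their glutamatergic neurons. They were taken by symbol from the table of gene levels, and the list was drawn up with earlier results of these data known. All 38 were found among the 55487 genes of that table and among the 27580 genes that reached the minimum mean level for testing. The animals were 18 days old. One group, Usp7 cKO; Trp53+/-, carried floxed Usp7 alleles (Usp7 fl/fl) and the NEX-cre driver, which is active in glutamatergic neurons. Microglia and other cortical cells were thus not targeted by design, and bulk RNA does not show Usp7 by cell type. The comparison group was Usp7 WT; Trp53+/-, and every animal in both groups was therefore heterozygous for Trp53. There were 5 libraries of bulk cortical RNA per group, each from a separate animal, called Usp7 WT and Usp7 cKO replicates 1 to 5 here. The labels describe the animals as matched in pairs by litter and sex but do not name the pairs.

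Microglia are the resident macrophages of the brain parenchyma. They come from yolk sac progenitors, depend for survival on signals through the receptor Csf1r, which is bound by Csf1 and by the neuron-derived ligand Il34, and in young cortex they survey synapses, take up debris and tag synapses with the complement protein C1q. In health they hold a homeostatic programme of surface receptors, under transcription factors such as Spi1 (PU.1), Irf8 and Sall1. The members were read in 7 role groups, namely homeostatic genes (12), complement (4), lysosomal genes (5), immunoreceptor signalling (5), transcription factors (3), pattern recognition (4), and pan-leukocyte and macrophage genes (5). Levels of homeostatic, complement and lysosomal members were compared to ask whether the set moved together or apart.

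The promoter sequences of 5 members are given here because these genes represent the directions seen below. C1qc, Ctss and Trem2 were lower in Usp7 cKO, and Fcgr3 and Irf8 were higher. Each window runs from 250 bases before to 50 bases after the RefSeq start of the gene, 5′ to 3′ on the gene's strand, from RefSeq on GRCm38.p6, and the capitals mark the core letters of the PU.1 motif, GAGGAAG or its reverse complement CTTCCTC. The windows are chr4:136892865-136893164 on the minus strand for C1qc, chr3:95526536-95526835 on the plus strand for Ctss, chr17:48346151-48346450 on the plus strand for Trem2, chr1:171059354-171059653 on the minus strand for Fcgr3 and chr8:120736108-120736407 on the plus strand for Irf8, the more upstream of its pair of windows.
C1qc: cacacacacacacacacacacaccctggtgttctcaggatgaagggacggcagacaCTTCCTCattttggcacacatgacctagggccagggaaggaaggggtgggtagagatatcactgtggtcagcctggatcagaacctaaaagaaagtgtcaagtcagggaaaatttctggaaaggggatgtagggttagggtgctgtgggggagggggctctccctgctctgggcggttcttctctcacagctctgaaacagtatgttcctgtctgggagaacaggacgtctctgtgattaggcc
Ctss: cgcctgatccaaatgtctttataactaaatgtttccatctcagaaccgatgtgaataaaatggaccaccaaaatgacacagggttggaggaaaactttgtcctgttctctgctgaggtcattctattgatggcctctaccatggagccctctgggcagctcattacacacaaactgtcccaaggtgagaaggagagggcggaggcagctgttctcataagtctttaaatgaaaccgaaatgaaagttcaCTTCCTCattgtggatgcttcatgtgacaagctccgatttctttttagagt
Trem2: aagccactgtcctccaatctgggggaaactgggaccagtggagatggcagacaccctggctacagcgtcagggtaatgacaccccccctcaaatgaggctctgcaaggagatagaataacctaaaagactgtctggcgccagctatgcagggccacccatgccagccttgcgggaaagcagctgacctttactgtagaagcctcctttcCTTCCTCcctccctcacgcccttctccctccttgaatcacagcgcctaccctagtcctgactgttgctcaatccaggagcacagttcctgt
Fcgr3: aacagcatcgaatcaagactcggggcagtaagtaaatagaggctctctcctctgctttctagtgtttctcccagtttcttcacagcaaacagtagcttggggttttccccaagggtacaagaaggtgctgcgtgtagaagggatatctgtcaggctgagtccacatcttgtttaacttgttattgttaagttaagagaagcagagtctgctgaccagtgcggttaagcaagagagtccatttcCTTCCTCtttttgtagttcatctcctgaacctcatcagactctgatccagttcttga
Irf8: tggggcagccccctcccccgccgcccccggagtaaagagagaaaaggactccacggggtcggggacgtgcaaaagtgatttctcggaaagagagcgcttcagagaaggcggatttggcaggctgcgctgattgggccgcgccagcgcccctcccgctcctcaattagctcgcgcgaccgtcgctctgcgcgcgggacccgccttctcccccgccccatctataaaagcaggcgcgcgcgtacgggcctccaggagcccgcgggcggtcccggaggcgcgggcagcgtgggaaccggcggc
The PU.1 letters begin 194 bases before the start in C1qc, 41 before it in Trem2, 7 before it in Fcgr3 and 1 before it in Ctss, and neither Irf8 window holds them. Fcgr3 also has another window, with a start further downstream, and there the same letters begin 16 bases before the start. The reference table matched 28 of the 38 members, and 12 of these 28 (42.9%) hold the motif on either strand, against 15.4% of 27025 genes in the table. A longer composite motif for PU.1 with an interferon regulatory factor, which shares the GGAA core of the PU.1 motif and was searched on both strands, occurs in 1 of the 28 (Cd68; 3.57%, against 3.16% of all genes), and the MEF2 motif in 0 of 28, against 0.122%. The PU.1 letters occur in 7 of the 14 matched members that fell, in 1 of the 3 that rose (Fcgr3) and in 4 of the 11 matched members that were not called. These matches describe the letters of the windows and no binding was measured.

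Usp7 itself checked the labels. Its level was 53.5, 50.2, 55.7, 48.3 and 61.9 TPM (a level scaled by gene length and library total) in Usp7 WT replicates 1 to 5 and 31.6, 36.0, 40.9, 35.3 and 40.9 TPM in Usp7 cKO replicates 1 to 5. The groups did not overlap, and the mean fell from 53.9 ± 5.32 to 36.9 ± 3.96 TPM (SD, n = 5 each; log2 change -0.54, SE 0.0766, limma adjusted p = 0.00131). The exon bins of each library held 42628526 to 51797145 reads. Markers of the targeted cell type moved with genotype: 10 of 12 glutamatergic neuron genes fell, against 4.67% of all genes tested. The summed level of the list was 7750 to 9043 TPM in Usp7 WT and 4459 to 5562 TPM in Usp7 cKO. Nrgn was the largest part of it, at 4640 ± 396 and 2391 ± 233 TPM, while Slc17a7 held 76.4% of its Usp7 WT mean. Neurod6, also called NEX, for which the Cre driver is named, was at 46.3%, and the part of the driver allele in this was not tested. TPM is a share of each library, and the part of the change in these neuron genes in the values of the members was not tested. Xist and Ddx3y went against the labelled sex in the library labelled Usp7 WT replicate 2 (female by label) and in the library labelled Usp7 cKO replicate 1 (male by label), and counts are given with and without them. By these transcripts, Usp7 WT replicates 2, 3 and 4 and Usp7 cKO replicate 4 read as male and the other libraries as female. Sex read this way was therefore not balanced between the groups, although the labelled sex was. The library identifiers of Usp7 cKO all precede those of Usp7 WT. What the identifiers record is not stated, and any difference that follows their order cannot be told apart from genotype.

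Most members were lower in Usp7 cKO cortex, and 3 were higher. Of the 38, 21 fell, 3 rose and 14 were not called (limma on log2(TPM + 0.5), adjusted p below 0.05 over all genes tested). Among all 27580 genes tested, 4.67% were called lower and 9.22% higher, so members were called lower far more often than the genes as a whole and called higher about as often. As the list was drawn up with earlier results of these data known, these shares describe it and do not test it. The median log2 change of the members was -0.42, against 0.06 for all genes tested. The 5 Usp7 cKO values lay below all 5 Usp7 WT values in 22 members and above them in 3, against 4.58% and 8.19% of all genes tested. These 22 hold Fcer1g and Dock2, which were not called, and lack Adgre1, which was called lower with overlapping groups. In bulk tissue, fewer cells of a type and less RNA per cell cannot be told apart.

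**Figure D1:**
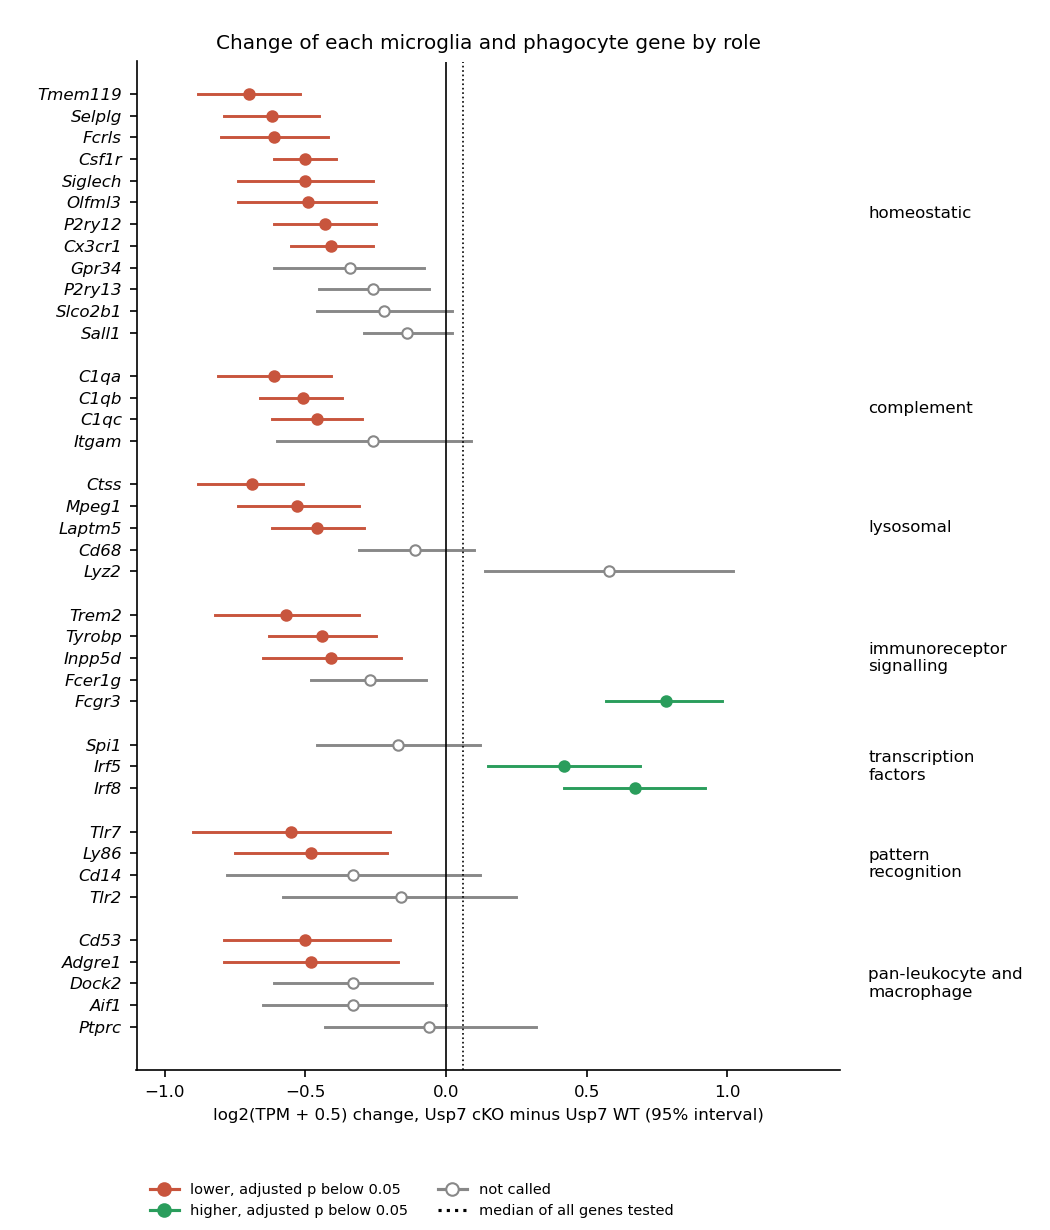
Log2 change in TPM + 0.5 (horizontal axis, Usp7 cKO minus Usp7 WT, with 95% intervals) for each of the 38 members, grouped by role, with filled points for the 24 called members, open grey points for the 14 not called, and a dotted line at the median of all genes tested, 0.06. Homeostatic and complement members all lie left of 0, while Fcgr3, Irf8 and Irf5 lie right of it.

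The calls did not rest on a single setting for most members. Of the 24 called members, 18 kept their call under every one of 21 alternatives, and 37 of 38 members kept their direction. The calls of Ly86, Irf5, Cd53, Inpp5d, Adgre1 and Tlr7 were lost under at least 1 alternative. Without the 2 libraries of discordant sex, 17 members fell and 2 rose, against 3.14% and 4.75% of all genes tested there. With Xist as covariate in place of labelled sex, 19 members fell and 2 rose, against 4.82% and 6.12% of all genes tested. Rescaling TPM by median-of-ratios size factors gave 27 lower and 3 higher (10.9% and 9.6% of all genes), edgeR on bin counts summed per gene gave 28 and 3 (13.5% and 13.7%), and DESeq2 on the same sums gave 29 and 3 (13.2% and 11.4%).

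The homeostatic group holds genes of the homeostatic programme of microglia, most of them for surface molecules, with the transcription factor Sall1. Not all of them are restricted to microglia, Csf1r among them. Of its 12 members, 8 fell and 4 were not called, with a median log2 change of -0.46 and a range of -0.70 to -0.14. Csf1r, the receptor microglia need to survive, had the highest level of the group. It was 59.6, 57.6, 60.1, 61.3 and 62.2 TPM in Usp7 WT replicates 1 to 5 and 45.2, 37.8, 41.9, 45.9 and 41.6 TPM in Usp7 cKO replicates 1 to 5. The lowest Usp7 WT value was above the highest Usp7 cKO value by more than the range within either group, and Usp7 cKO held 70.6% of the Usp7 WT mean (log2 -0.50, SE 0.051, limma adjusted p = 0.000179). Tmem119, a membrane protein that marks parenchymal microglia, changed the most. Its level was 24.9, 25.1, 25.3, 27.4 and 31.9 TPM in Usp7 WT libraries and 17.5, 17.1, 15.6, 15.8 and 15.6 TPM in Usp7 cKO libraries. The groups were well apart, at 26.9 ± 2.95 and 16.3 ± 0.924 TPM (SD, n = 5; log2 -0.70, SE 0.0802, limma adjusted p = 0.000357).

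Sall1, a zinc finger factor that maintains the microglial programme and is also expressed in other neural cells, had the smallest difference of the homeostatic members. It was at 19.5, 17.5, 18.4, 19.3 and 20.9 TPM in Usp7 WT libraries and at 18.9, 16.8, 17.9, 16.4 and 16.6 TPM in Usp7 cKO libraries. The groups overlapped, and the log2 change was -0.14 (95% interval -0.29 to 0.02, limma adjusted p = 0.223). It was called lower after rescaling and by DESeq2. Gpr34, a lysophosphatidylserine receptor, had the lowest level of the group. Its values were 6.10, 4.90, 6.98, 7.03 and 6.84 TPM in Usp7 WT libraries and 5.75, 4.21, 5.27, 4.53 and 4.78 TPM in Usp7 cKO libraries. They overlapped only through Usp7 WT replicate 2, and the change did not pass (log2 -0.34, limma adjusted p = 0.0862). It passed without that replicate, after rescaling and in both count fits.

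The other homeostatic members followed the same direction. Selplg, a ligand of selectins, fell to 64.6% of the Usp7 WT mean (log2 -0.62), and Fcrls, an Fc receptor-like protein, to 64.9% (log2 -0.61). The lectin Siglech fell by 0.50 and the secreted protein Olfml3 by 0.49 on the log2 scale. P2ry12, the ADP receptor that steers microglial processes to injury, fell by 0.43, and the fractalkine receptor Cx3cr1 by 0.41. P2ry13, which lies beside P2ry12 on chromosome 3 and is a related ADP receptor, had overlapping groups (log2 -0.26, limma adjusted p = 0.0787) and was called lower after rescaling, in both count fits and without the libraries of discordant sex. The transporter Slco2b1 also overlapped (log2 -0.22, limma adjusted p = 0.221) and was called lower in both count fits (adjusted p down to 0.00531). The TPM of these genes spans a wide range, from 60.1 for Csf1r to 6.37 for Gpr34 in Usp7 WT, and members called lower were found from Csf1r down to Olfml3 at 7.63 TPM.

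The complement group joins the 3 chains of C1q, which opens the classical complement cascade and is made in brain chiefly by microglia, with Itgam, a chain of complement receptor 3. All 3 C1q genes fell and Itgam was not called, with a median log2 change of -0.49 over the 4. C1qa was 61.4, 59.7, 57.2, 61.1 and 75.9 TPM in Usp7 WT libraries and 39.8, 41.5, 37.0, 47.5 and 39.1 TPM in Usp7 cKO libraries. Its groups did not overlap, and it changed the most of the 4 (log2 -0.61, SE 0.0894, limma adjusted p = 0.00157). C1qb, the highest of the group over all 10 libraries although C1qa was as high in Usp7 WT, was at 57.5, 60.7, 71.3, 58.6 and 64.8 TPM in Usp7 WT libraries and 44.6, 43.7, 39.8, 49.2 and 41.3 TPM in Usp7 cKO libraries. It held 69.9% of the Usp7 WT mean (log2 -0.51, limma adjusted p = 0.000725). C1qc fell from 44.8 ± 3.96 to 32.3 ± 1.76 TPM (log2 -0.46, limma adjusted p = 0.00201). The 3 genes are neighbours on chromosome 4 (GRCm38, minus strand), with C1qb from 136880129, C1qc from 136889804 and C1qa up to 136898803.

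Itgam was much lower than the C1q chains. It was 1.65, 1.81, 1.46, 1.39 and 1.71 TPM in Usp7 WT libraries and 1.38, 1.23, 1.66, 1.28 and 0.847 TPM in Usp7 cKO libraries. The groups overlapped and the interval of the log2 change, -0.60 to 0.09, held both no change and a fall as large as that of the C1q genes (limma adjusted p = 0.321). Both count fits, edgeR and DESeq2, called it lower. Other complement genes did not follow C1q. Of 18 tested from a list of 23 such genes, 3 rose in limma and none fell, and 5 of the 18 had an unadjusted p below 0.05. EdgeR and DESeq2 each called 1 lower and 3 higher. Over all genes tested, limma called 4.67% lower and 9.22% higher, edgeR 13.5% and 13.7%, and DESeq2 13.2% and 11.4%. C4b, the C4 component that C1s cleaves, rose from 7.50 ± 1.39 to 16.9 ± 3.43 TPM (log2 1.11, limma adjusted p = 0.00119). The other pair, C1ql1 (log2 1.14) and C1ql2 (log2 1.54), encode C1q-like synaptic proteins that are not part of the complement cascade.

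Lysosomal members were split. Of the 5, Ctss, Mpeg1 and Laptm5 fell, while Cd68 and Lyz2 were not called and lay apart from them, with a group median of -0.46 and a range of -0.69 to 0.58. Ctss, the cysteine protease cathepsin S, had both the highest level and the largest change. It was 54.3, 54.6, 58.6, 43.4 and 52.2 TPM in Usp7 WT libraries and 35.5, 29.9, 31.6, 33.8 and 30.5 TPM in Usp7 cKO libraries. The groups were separate, and Usp7 cKO held 61.3% of the Usp7 WT mean (log2 -0.69, SE 0.0837, limma adjusted p = 0.000499). Mpeg1, a pore-forming protein of phagosomes, fell by 0.53 on the log2 scale (limma adjusted p = 0.00601). Laptm5, a lysosomal membrane protein of blood-lineage cells, fell by 0.46 (limma adjusted p = 0.00283).

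Cd68, a glycoprotein of late endosomes and lysosomes that is widely used as a marker of phagocytic activity, was at similar levels in both groups. Its values were 16.6, 13.9, 14.5, 16.5 and 18.0 TPM in Usp7 WT libraries and 15.5, 13.2, 13.3, 15.2 and 16.4 TPM in Usp7 cKO libraries. The groups overlapped across most of their range (log2 -0.11, 95% interval -0.31 to 0.10, limma adjusted p = 0.506), and none of the 21 alternatives called it. Lyz2, lysozyme M of macrophages and granulocytes, was the lowest member of the group. It was 3.99, 2.35, 3.91, 2.82 and 1.82 TPM in Usp7 WT libraries and 5.73, 5.23, 4.36, 4.39 and 3.32 TPM in Usp7 cKO libraries. Of the Usp7 cKO values only replicate 5 lay within the Usp7 WT range, and the change did not pass (log2 0.58, SE 0.199, limma adjusted p = 0.0827). Without Usp7 WT replicate 1 it passed (limma adjusted p = 0.0351). In a broader list of 33 lysosomal genes of all cell types, 3 fell and 3 rose in limma (5 and 5 in each count fit). All genes tested were called lower and higher at 4.67% and 9.22% in limma, and at 11.4% to 13.7% in the count fits. The rises in limma were led by acid alpha-glucosidase, Gaa, from 194 to 353 TPM (log2 0.86).

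**Figure D2:**
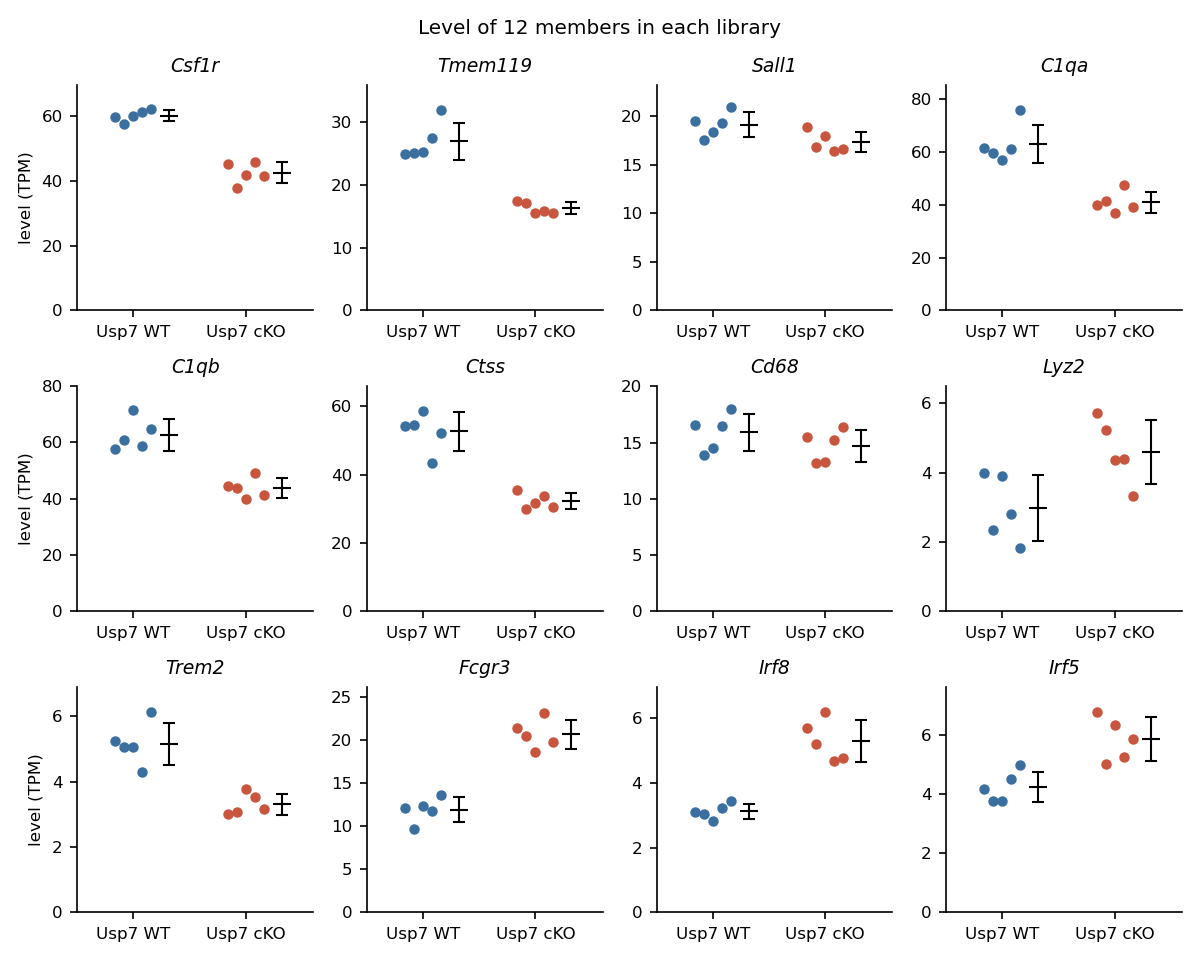
Level in TPM (vertical axes, from 0) of 12 members in each library, with 5 points per group and the mean ± SD beside them. Csf1r, Tmem119, C1qa, C1qb, Ctss and Trem2 were separated downward in Usp7 cKO, Sall1, Cd68 and Lyz2 overlapped, and Fcgr3, Irf8 and Irf5 were separated upward.

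Immunoreceptor signalling genes went both ways. Tyrobp (DAP12) and Fcer1g (the FcR gamma chain) are adaptors that carry activating motifs for receptors such as Trem2 and Fcgr3, and Inpp5d (SHIP1) is a phosphatase that damps the signal. Of these 5 members 3 fell, Fcgr3 rose and Fcer1g was not called. Trem2, a lipid-sensing receptor and the lowest of the group, was 5.23, 5.05, 5.05, 4.29 and 6.12 TPM in Usp7 WT libraries and 3.01, 3.08, 3.77, 3.52 and 3.17 TPM in Usp7 cKO libraries. The groups were separate (log2 -0.57, SE 0.114, limma adjusted p = 0.00885). Tyrobp, the highest of the group over all 10 libraries but below Fcgr3 in Usp7 cKO, was 26.3, 20.8, 24.4, 23.3 and 26.4 TPM in Usp7 WT libraries and 17.5, 15.6, 18.9, 19.4 and 17.2 TPM in Usp7 cKO libraries. It also had separate groups, and held 73% of the Usp7 WT mean (log2 -0.44, limma adjusted p = 0.00739). Inpp5d fell by 0.41 on the log2 scale (limma adjusted p = 0.0357), a call that was lost under 11 alternatives, among them those that left out any 1 of Usp7 WT replicates 1, 3 and 4 and the 5 Usp7 cKO replicates (limma adjusted p = 0.052 to 0.0912).

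Fcgr3, the low-affinity activating IgG receptor CD16, had the largest rise of the 38 members. It was 12.1, 9.66, 12.4, 11.8 and 13.7 TPM in Usp7 WT libraries and 21.4, 20.5, 18.7, 23.2 and 19.8 TPM in Usp7 cKO libraries. Every Usp7 cKO library was above every Usp7 WT library, and the mean rose to 20.7 ± 1.69 TPM from 11.9 ± 1.45 TPM (SD, n = 5; log2 0.78, SE 0.0906, limma adjusted p = 0.000408). The rise held in all 21 alternatives (log2 0.70 to 0.84). Fcer1g, the adaptor its protein needs at the cell surface, was 12.8, 12.2, 11.8, 10.9 and 15.6 TPM in Usp7 WT libraries and 10.5, 10.9, 10.2, 10.3 and 9.67 TPM in Usp7 cKO libraries. The values met without crossing, and the difference, the smallest of the group, did not pass (log2 -0.27, limma adjusted p = 0.0742). It was called lower after rescaling, with Xist as covariate and in both count fits (adjusted p down to 0.011). The inhibitory counterpart Fcgr2b, a related gene whose reads could be shared with Fcgr3 if the authors' counting split them, was at 0.997 ± 0.189 TPM in Usp7 WT libraries and 0.889 ± 0.242 TPM in Usp7 cKO libraries (log2 -0.12, limma adjusted p = 0.695).

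Reads of Fcgr3 were higher along the whole gene. The gene lies at chr1:171051174-171064935 on the minus strand (GRCm38), and its 13 counting bins held 283, 251, 300, 310 and 277 reads in Usp7 WT and 470, 475, 375, 648 and 505 reads in Usp7 cKO. All 7 bins with a mean of at least 10 reads were higher in Usp7 cKO, by 0.56 to 1.08 on the log2 scale. An upstream exon stood out in addition. Bin E012, at 171059627-171059726, is the second exon of the transcript Fcgr3-202 in GENCODE M21, whose first exon, bin E013 at 171064754-171064935, is the most upstream of the gene. The other protein-coding transcripts, Fcgr3-201 and Fcgr3-204, start at 171059403 and do not hold it. E012 held 0, 0, 0, 0 and 1 reads in Usp7 WT and 7, 7, 4, 15 and 10 reads in Usp7 cKO. This was 1 of 1421 reads of the gene in the first group and 43 of 2473 in the second, or on average 0.0722% and 1.66% of each library's Fcgr3 reads.

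In the authors' deposited table of bin usage, E012 of Fcgr3 is the only 1 of 377 tested bins of the 38 members with an adjusted p below 0.05 (log2 fold 4.64, adjusted p = 6.42e-05), and the share of all bins below it is not given here. The bin fell under the minimum mean of 10 reads set here for testing bin usage, and at that minimum edgeR called 0 of 32 testable members (0 at an unadjusted p below 0.05, and 2.85% of all genes called). With the minimum lowered to 1 read, a choice made after the bins were seen, Fcgr3 was called (edgeR adjusted p = 0.00106 for the gene and 0.000786 for the bin) and none of the other 37 members was, against 1.93% of all genes. The first exon of the same transcript, bin E013, held 1, 0, 3, 1 and 1 reads in Usp7 WT and 3, 8, 9, 3 and 1 reads in Usp7 cKO, which overlap (edgeR adjusted p = 1 for the bin). The last 27 bases of E012 in the direction of transcription are the opening bases of the Fcgr3 window printed above. Between the 2 upstream exons lies Mir6546, a 62-base microRNA gene on the same strand at 171064591-171064652, which was examined because it sits there. Its values were 2.01, 1.85, 2.05, 3.63 and 0 TPM in Usp7 WT libraries and 5.48, 26.7, 17.6, 9.59 and 13.3 TPM in Usp7 cKO libraries. The groups did not overlap (log2 2.74, SE 0.585, limma adjusted p = 0.013), the call was kept in each of the 19 alternatives that gave it a value (adjusted p up to 0.0446), and in fragmented total RNA these reads cannot be told apart from unspliced reads of the Fcgr3-202 intron around it.

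**Figure D3:**
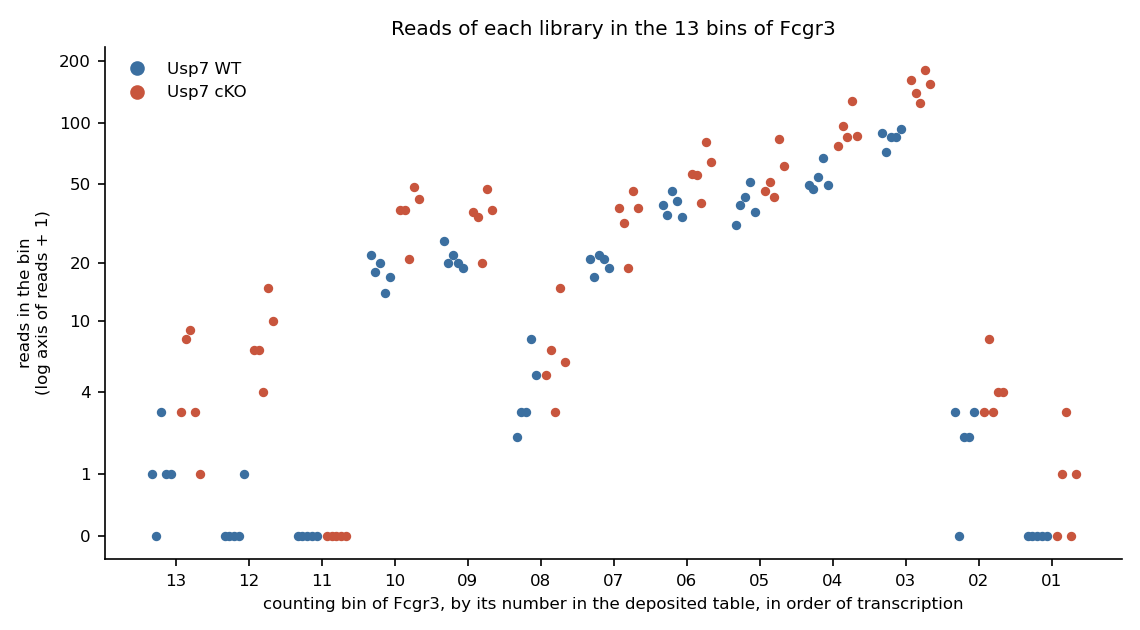
Reads of each library (vertical axis, log scale of reads + 1) in the 13 counting bins of Fcgr3, from the most upstream bin, 13, to the most downstream, 01, with 5 points per group. Bin 12 holds 0 or 1 reads in each Usp7 WT library and 4 to 15 in each Usp7 cKO library, while bins 10 to 03 are raised together by smaller ratios.

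Of the transcription factors, Irf8 and Irf5 rose and Spi1 was not called. Irf8, an interferon regulatory factor that microglia need for their development and reactivity, had the largest change. It was 3.10, 3.05, 2.82, 3.22 and 3.45 TPM in Usp7 WT libraries and 5.70, 5.20, 6.17, 4.66 and 4.75 TPM in Usp7 cKO libraries. The groups were separate by more than the range of Usp7 WT, and the mean rose from 3.13 ± 0.231 to 5.30 ± 0.642 TPM (log2 0.67, SE 0.112, limma adjusted p = 0.00331), a call kept in all 21 alternatives. All 12 of its bins with a mean of at least 10 reads were higher, by 0.29 to 1.01 on the log2 scale. Irf5, which acts downstream of Toll-like receptors and had the highest level of the 3, was 4.17, 3.76, 3.76, 4.50 and 4.97 TPM in Usp7 WT libraries and 6.78, 5.00, 6.33, 5.26 and 5.86 TPM in Usp7 cKO libraries. Its groups nearly touched, at 4.97 and 5.00 TPM (log2 0.42, SE 0.122, limma adjusted p = 0.0445).

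The Irf5 call was lost without the 2 libraries of discordant sex (limma adjusted p = 0.213), with Xist as covariate (0.0974) and when any 1 of Usp7 WT replicates 1, 2, 3 and 4 and Usp7 cKO replicates 1, 3, 4 and 5 was left out (0.0595 to 0.109). Tnpo3, which overlaps Irf5 on the opposite strand, was at 19.4 and 19.9 TPM (log2 0.04, limma adjusted p = 0.751). Spi1, the PU.1 factor that specifies the myeloid lineage, was 3.96, 3.74, 3.56, 3.59 and 3.74 TPM in Usp7 WT libraries and 4.23, 2.84, 3.68, 2.91 and 2.81 TPM in Usp7 cKO libraries. The Usp7 cKO values lay on both sides of the narrow Usp7 WT range (log2 -0.17, 95% interval -0.46 to 0.12, limma adjusted p = 0.447). Cebpa, another myeloid factor that is also expressed outside microglia, rose from 15.0 ± 0.942 to 24.1 ± 3.74 TPM (log2 0.66, limma adjusted p = 0.00189).

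Pattern recognition genes were expressed at low levels, and 2 of 4 fell. Ly86 (MD-1), a partner of the Toll-like protein RP105 and the highest of the group, was 3.06, 3.29, 3.76, 3.32 and 3.88 TPM in Usp7 WT libraries and 2.21, 2.00, 2.67, 2.59 and 2.28 TPM in Usp7 cKO libraries. The groups were separate (log2 -0.48, limma adjusted p = 0.0265), and the call was lost when any 1 of Usp7 WT replicates 2, 3 and 5 and Usp7 cKO replicates 1, 2 and 5 was left out (0.0508 to 0.0663) and without both libraries of discordant sex (0.115). Tlr7, the endosomal receptor for single-stranded RNA, changed the most. It was 1.65, 1.82, 1.88, 1.59 and 2.42 TPM in Usp7 WT libraries and 1.16, 1.37, 1.24, 1.06 and 0.782 TPM in Usp7 cKO libraries. These groups were separate too (log2 -0.55, SE 0.157, limma adjusted p = 0.0432), but the call was lost without any 1 of the 10 libraries (0.0529 to 0.0998) and without both of discordant sex (0.115).

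Tlr2, a receptor for bacterial lipoproteins, was at the edge of detection. Its values were 0.373, 0.532, 0.526, 0.860 and 0.748 TPM in Usp7 WT libraries and 0.361, 0.571, 0.499, 0.466 and 0.510 TPM in Usp7 cKO libraries. They overlapped throughout (log2 -0.16, limma adjusted p = 0.625), on 9 to 24 reads per library. The co-receptor Cd14, at 2.25 ± 0.625 and 1.68 ± 0.423 TPM, overlapped as well (log2 -0.33, limma adjusted p = 0.328). Of 18 tested Toll-like receptors and partners, which include these 4, the genes that fell in limma were Tlr7 and Ly86, and Tlr9 rose (3.21 to 4.37 TPM, log2 0.40, limma adjusted p = 0.0261). EdgeR called 4 of the 18 lower and DESeq2 3, and each called 1 higher. The lower and higher shares of all genes tested were 4.67% and 9.22% in limma, 13.5% and 13.7% in edgeR, and 13.2% and 11.4% in DESeq2. The Tlr9 call was lost when any 1 of Usp7 WT replicates 2, 3 and 4 and Usp7 cKO replicates 1, 3, 4 and 5 was left out (0.0515 to 0.0756). Cytokines and chemokines showed no call in limma among 11 tested, with 1 at an unadjusted p below 0.05, while edgeR called 1 lower and DESeq2 2 lower.

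The pan-leukocyte and macrophage members had a median log2 change of -0.33, and 2 of 5 fell. Cd53, a tetraspanin of leukocytes, changed the most. It was 5.13, 6.14, 6.45, 4.43 and 6.43 TPM in Usp7 WT libraries and 4.25, 3.95, 3.22, 4 and 4 TPM in Usp7 cKO libraries. The gap between the groups was small (log2 -0.50, limma adjusted p = 0.0319), and the call was lost when any 1 of Usp7 WT replicates 1, 2, 3 and 5 and Usp7 cKO replicates 2, 3, 4 and 5 was left out (0.051 to 0.0783) and without both libraries of discordant sex (0.105). Adgre1 (F4/80), an adhesion receptor of macrophages and the highest of the group by mean, was 6.54, 4.45, 5.76, 5.84 and 6.27 TPM in Usp7 WT libraries and 4.47, 2.89, 4.03, 4.77 and 3.90 TPM in Usp7 cKO libraries. Its groups overlapped through Usp7 WT replicate 2 (log2 -0.48, limma adjusted p = 0.0453), and the call was lost without any 1 of the other 9 libraries (0.0636 to 0.111).

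Ptprc (CD45), the leukocyte phosphatase that microglia hold at low levels, had the lowest level and the smallest difference of this group. It was 0.532, 0.522, 0.582, 0.507 and 0.565 TPM in Usp7 WT libraries and 0.464, 0.564, 0.661, 0.531 and 0.323 TPM in Usp7 cKO libraries. The Usp7 cKO values lay on both sides of the Usp7 WT range (log2 -0.06, 95% interval -0.43 to 0.32, limma adjusted p = 0.865), and without Usp7 cKO replicate 5 the difference was 0.02. Aif1 (Iba1), the actin-binding protein used to stain microglia, overlapped (4.29 ± 0.720 and 3.33 ± 0.599 TPM, log2 -0.33, limma adjusted p = 0.177). Dock2, a Rac activator of leukocytes, did not overlap but was not called (2.49 ± 0.368 and 1.87 ± 0.143 TPM, log2 -0.33, limma adjusted p = 0.114). Aif1 and Dock2 were both called lower after rescaling and in both count fits.

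The role groups were then compared within each library, by dividing the summed TPM of a group by that of the 12 homeostatic members. The homeostatic sum was 244, 229, 245, 251 and 269 TPM in Usp7 WT libraries and 197, 169, 171, 183 and 171 TPM in Usp7 cKO libraries. The complement sum was 172 ± 12.3 and 118 ± 8.83 TPM, and its ratio to the homeostatic sum was 0.694 ± 0.0309 in Usp7 WT and 0.665 ± 0.0513 in Usp7 cKO, with overlapping values. The lysosomal sum was 111 ± 6.26 and 79.5 ± 5.82 TPM, and its ratio was 0.448 ± 0.0299 and 0.446 ± 0.00836, again overlapping. The complement and lysosomal sums were thus lower in near proportion to the homeostatic sum, and the lysosomal sum is mostly Ctss and Laptm5. The members of the lysosomal group did not all keep to this proportion, since Cd68 (log2 -0.11) and Lyz2 (log2 0.58) lay apart from the median log2 change, which was -0.46 for the lysosomal and for the homeostatic members.

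The ratio of pan-leukocyte and macrophage members (0.0759 and 0.0762) and of pattern recognition members (0.0330 and 0.0317) also overlapped. Immunoreceptor signalling genes took a larger share, at 0.267, 0.244, 0.255, 0.237 and 0.274 of the homeostatic sum in Usp7 WT and 0.301, 0.339, 0.343, 0.346 and 0.328 in Usp7 cKO. The groups did not overlap, but with Fcgr3 left out of the sum, a choice made after its values were seen, they did (0.207 ± 0.0132 and 0.215 ± 0.0150). Transcription factors were at 0.0447 ± 0.00199 of the homeostatic sum in Usp7 WT and at 0.0810 ± 0.00917 in Usp7 cKO, also without overlap. No test was run on these ratios.

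**Figure D4:**
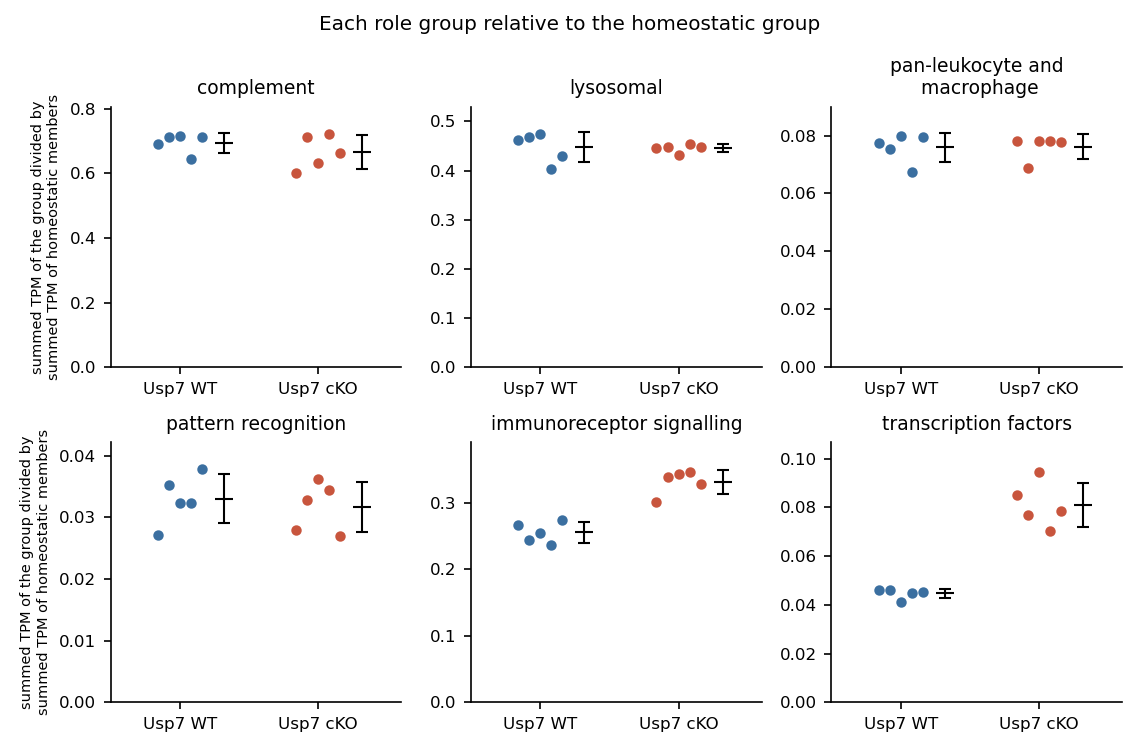
Summed TPM of each role group divided by the summed TPM of the 12 homeostatic members (vertical axes, from 0) in each library, with 5 points per group and the mean ± SD. Complement, lysosomal, pan-leukocyte and pattern recognition ratios overlap between genotypes, and the immunoreceptor and transcription factor ratios do not.

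Gene by gene, each member was set per 100 TPM of the homeostatic members (leaving the gene itself out of that sum). By this measure 31 of 38 members had overlapping groups. Those that took a larger share in every Usp7 cKO library were Fcgr3 (4.81 ± 0.359 to 11.6 ± 0.768), Irf8 (1.26 ± 0.0675 to 2.98 ± 0.397), Irf5 (1.70 ± 0.124 to 3.28 ± 0.350), Lyz2 (1.21 ± 0.404 to 2.58 ± 0.449), Cd68 (6.42 ± 0.393 to 8.28 ± 0.780) and Sall1 (8.35 ± 0.227 to 10.8 ± 0.640). Tmem119 took a smaller share, at 12.2 ± 0.824 and 10.1 ± 0.694. Since the homeostatic sum fell, 47.6% of all genes tested lay higher without overlap by the same measure and 0.344% lower. A share of 6 of 38 members lies below this 47.6%, but the divisor was built from members and the list with earlier results known. The comparison therefore describes the measure and does not test the members. Overlap does not show that a share was kept. Among the 31, the share of P2ry13 was 4.89 ± 0.302 in Usp7 WT and 5.69 ± 0.324 in Usp7 cKO, and that of Ctss 21.3 ± 2.92 and 18.1 ± 0.364, and no test was run on these shares.

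The signals that maintain microglia were read from a list of 13 tested genes around Csf1r. Of these 2 fell and 3 rose in limma, and 5 were lower and 4 higher in each count fit. Among all genes tested, 4.67% fell and 9.22% rose in limma, 13.5% and 13.7% in edgeR, and 13.2% and 11.4% in DESeq2. Il34, the Csf1r ligand made mainly by cortical neurons, fell. It was 84.6, 78, 82.2, 75.2 and 88.3 TPM in Usp7 WT libraries and 60.0, 52.1, 50.2, 56.3 and 58.8 TPM in Usp7 cKO libraries. The groups were far apart (log2 -0.55, SE 0.0662, limma adjusted p = 0.000468). Csf1, the other ligand, made mainly by glia, did not pass (10.8 ± 1.26 and 13.7 ± 1.98 TPM, log2 0.32, limma adjusted p = 0.0796). Socs1, a brake on cytokine signals, rose from 2.36 ± 0.468 to 4.52 ± 0.362 TPM (log2 0.83, limma adjusted p = 0.00346). Csf2ra rose by log2 0.69 (limma adjusted p = 0.00949), and not without the libraries of discordant sex (0.0632).

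Other microglia-enriched genes moved like the members in part. Of 30 tested, 7 fell and 3 rose in limma, while edgeR called 13 lower and 6 higher and DESeq2 15 lower and 6 higher. Among all genes tested, 4.67% fell and 9.22% rose in limma, 13.5% and 13.7% in edgeR, and 13.2% and 11.4% in DESeq2. Rises in limma were thus about as frequent in this list as among all genes. The same shares apply to the other lists of this paragraph. Crybb1, a crystallin found in young microglia, fell from 29.0 ± 3.69 to 17.6 ± 1.67 TPM (log2 -0.70, limma adjusted p = 0.000774). Those that rose were Gas6 (log2 0.48), Rgs10 (log2 0.59) and Cebpa, each of which other brain cells also express. The disease-associated microglia state is marked by genes such as Apoe, Cst7 and Itgax. Of 26 genes listed for it, 6 lay below the minimum level and were not tested, among them Itgax, Clec7a, Ccl3 and Ccl4. Of the 20 tested, limma called none lower and 2 higher. These were the tetraspanin Cd63 (16.7 ± 0.153 to 24.2 ± 1.58 TPM, log2 0.52, limma adjusted p = 0.000319) and the fatty acid carrier Fabp5 (log2 0.46, limma adjusted p = 0.0146, lost without the libraries of discordant sex at 0.0739). Both are widely expressed, 4 of the 20 had an unadjusted p below 0.05, and edgeR and DESeq2 each called 1 lower and 2 higher. In the Fc receptor and ITAM list 4 of 18 fell and 2 rose in limma, and edgeR and DESeq2 each called 9 lower and 2 higher. Besides members, the adaptor Blnk fell from 3.45 ± 0.374 to 1.46 ± 0.440 TPM (log2 -1.03, limma adjusted p = 0.00224) and the exchange factor Vav1 fell by 0.51 (limma adjusted p = 0.00528). Of 13 genes tested from a list named for phagocytic receptors, 1 fell (Stard8, log2 -1.03) and 1 rose (Scarb1, log2 0.42) in limma. Stard8 does not itself encode a receptor. EdgeR called 4 of the 13 lower and 2 higher, and DESeq2 4 lower and 1 higher.

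Markers of other cells that could carry these genes were low or, for the most part, were not called. Of 14 border macrophage genes 8 reached the minimum level, and limma, edgeR and DESeq2 each called 0 of them (0 at an unadjusted p below 0.05). Their summed level was 30.1 to 42.2 TPM in Usp7 WT and 32.6 to 41.9 TPM in Usp7 cKO. Mrc1, the mannose receptor of these cells, was at 3.58 ± 0.584 TPM in Usp7 cKO (log2 0.09). For monocytes and neutrophils, 12 of 16 genes were below the minimum and Ly6g was at 0 in all 10 libraries. The list's sum was 4.19 to 6.85 TPM in Usp7 WT and 4.79 to 14.3 TPM in Usp7 cKO. Retnlg, of neutrophils, was the only call in limma (1.91 to 0.688 TPM, limma adjusted p = 0.0455), and DESeq2 did not call it. Its call was lost without any 1 of 8 libraries (limma adjusted p = 0.0676 to 0.105) and kept without Usp7 WT replicate 3 or Usp7 cKO replicate 1. The list did not fall with it. Its 4 tested genes had a median log2 change of 0.20, and Hp (log2 0.74), Ly6c2 (0.19) and Lcn2 (0.22) were higher without a call. For lymphocytes 14 of 16 genes were below the minimum, with sums of 3.12 to 6.46 and 4.09 to 12.0 TPM, and limma called 0 of the other 2 (0 at an unadjusted p below 0.05, DESeq2 0, edgeR 1 higher). Blood genes summed to 632 to 853 and 696 to 866 TPM, and no tool called any of 6. Their part in the members' changes was not tested.

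Limma also called 0 of 12 endothelial, 0 of 10 pericyte and 0 of 10 oligodendrocyte genes, with 0, 2 and 0 at an unadjusted p below 0.05. EdgeR and DESeq2 called 0 endothelial and 0 oligodendrocyte genes, and each called 1 pericyte gene lower and 1 higher. Of 12 astrocyte genes 2 rose, Gfap (log2 0.42, limma adjusted p = 0.0261) and Sox9 (log2 0.32, adjusted p = 0.0188), and both calls were lost without the libraries of discordant sex (0.0812 and 0.113). EdgeR and DESeq2 each called 3 astrocyte genes lower and 2 higher. Beside the counts of this paragraph, limma called 4.67% of all genes tested lower and 9.22% higher, edgeR 13.5% and 13.7%, and DESeq2 13.2% and 11.4%. Leaving out any 1 of Usp7 WT replicates 2, 3 and 5 and Usp7 cKO replicate 4 ended the Gfap call (0.0518 to 0.0633), and leaving out any 1 of Usp7 WT replicate 1 and Usp7 cKO replicates 1 and 5 that of Sox9 (0.0508 to 0.0522). Of 10 oligodendrocyte precursor genes 2 rose, C1ql1 and Lhfpl3 (log2 0.42, lost without the libraries of discordant sex at adjusted p = 0.08). Of 10 GABAergic neuron genes 1 fell, Pvalb (log2 -0.67, adjusted p = 0.0489, lost without any 1 of 7 libraries at 0.0599 to 0.101, namely Usp7 WT replicates 1 to 5 and Usp7 cKO replicates 1 and 4), while edgeR and DESeq2 each called 2 lower and 1 higher.

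**Figure D5:**
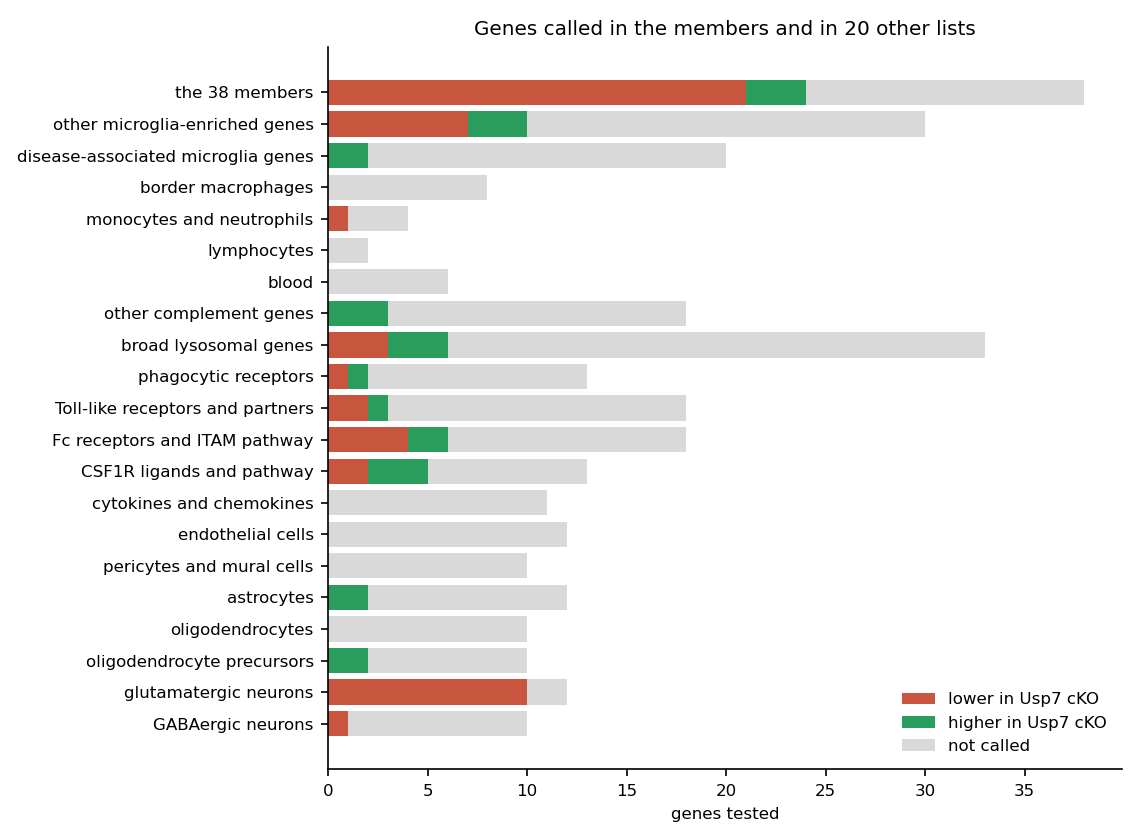
Number of genes tested (horizontal axis) that were lower, higher or not called in Usp7 cKO, for the 38 members and 20 other lists. The bars for the members and for glutamatergic neuron genes are mostly lower calls, 21 of 38 and 10 of 12, and those for border macrophages, blood, endothelial cells and oligodendrocytes hold no call.

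Apart from Fcgr3, splicing of the members showed no difference that these reads could resolve. Spliced reads placed 5 members in tested intron clusters, and edgeR called 0 of them (0 at an unadjusted p below 0.05, against 0.22% of all clusters called). Scaled to each library's spliced reads as CPM, Ctss had 27.0 ± 3.56 and 19.9 ± 3.30 CPM in Usp7 WT and Usp7 cKO. C1qc had 20.8 ± 2.49 and 15.8 ± 2.84 CPM, and Fcgr3 6.31 ± 1.89 and 11.3 ± 3.34 CPM, each with overlapping groups in the direction of the gene levels. Bin reads also moved along whole genes. All 8 tested bins of Ctss, 15 of 15 of Laptm5, 14 of 14 of Siglech and 22 of 23 of Csf1r were lower in Usp7 cKO. In Sall1, 2 of 4 bins were lower and 2 higher. For 8 members, a gene on the opposite strand overlaps the locus, and since the sources used here do not give the strand setting of the counting, reads of such pairs could be mixed. The lowest limma adjusted p of such a partner was 0.0679, for Med12l, which overlaps P2ry12 and P2ry13 and was at 24.0 and 28.5 TPM (log2 0.24). Hmgxb3, which overlaps Csf1r, was at 24.3 and 21.7 TPM (log2 -0.16, limma adjusted p = 0.151).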

How the data were processed

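Per the labels' protocols, total cortical RNA was cleared of ribosomal RNA with RNase H and reverse transcribed from random hexamers. Tools named without roles in the submitters' processing notes are SAMtools 1.10, STAR 2.7.9a and featureCounts of Subread, with the build GRCm38. Per the file headers, gene levels are deposited TPM values (55487 genes, after 287 repeated lines were counted once). Exon bin and intron values are deposited raw counts, per the file headers. The deposited bin table also holds the authors' log2 fold changes and adjusted p-values.

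Levels were compared by limma 3.58.1 on log2(TPM + 0.5), with trend and robust variances, a minimum mean of 0.5 TPM per gene, labelled sex as covariate, all 10 libraries, and Benjamini-Hochberg adjustment over all genes. A gene was called at an adjusted p below 0.05, and errors are SD or SE with 95% intervals. Bin and intron usage was tested by edgeR 4.0.16 (diffSpliceDGE, means of at least 10 and 5 reads). The intron counts of Usp7 WT replicate 1, all of them even, were halved. Alternatives used other pseudocounts (0.1 and 1), filters, scaling, covariates, edgeR and DESeq2 1.42.0 on summed bin counts, and each library left out. The procedures were tested on simulated data. Values per library are given for Usp7 and, in each role group, for the members with the largest and smallest change and the highest and lowest level. Of each other list, genes were named from the 4 with the smallest p, and Csf1, Fcgr2b, Mir6546 and genes overlapping members were added after their values were seen. The members and the lists were chosen with earlier results of these data known. Of the list genes, 2 symbols were not matched. An item among the list genes is not reported here by name. Libraries are of separate animals, and p-values measure the spread between them.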

Additional observations from a re-analysis of the deposited data

Results flagged for a closer look

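In 5 of the 76 groups of 5 values checked (38 members in 2 genotypes), a single library lay far from the other 4 relative to the group's range (Dixon's test at 95%), and chance gives about 1 in 20 such groups. C1qa was 75.9 TPM in Usp7 WT replicate 5, against 57.2 to 61.4 TPM in the other Usp7 WT libraries. Inpp5d was 12.0 TPM in the same library, against 8.16 to 9.25 TPM. Fcrls was 21.2 TPM in the library labelled Usp7 cKO replicate 1, against 16.5 to 17.4 TPM in the other Usp7 cKO libraries. P2ry13 was 11.2 TPM in that library too, against 9 to 9.55 TPM, and it is the value that lay within the Usp7 WT range. Dock2 was 1.62 TPM in Usp7 cKO replicate 2, against 1.90 to 1.98 TPM. The calls of C1qa and Fcrls were kept without any 1 library.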

How the results depend on the processing

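Each member had up to 21 alternatives. The counts of members called stayed within 1.5 times of 21 lower and 3 higher in every one, at 16 to 29 lower and 2 or 3 higher; leaving out each library in turn gave 16 to 19 lower and 2 or 3 higher. With the number at the end of each title and the labelled sex as a replicate block, 19 members fell and 3 rose, and Inpp5d (adjusted p = 0.0598) and Tlr7 (0.072) were no longer called. The numbers were not taken to pair the samples, although number and labelled sex together are balanced between the groups. Same-numbered libraries of the same labelled sex correlated by -0.016 to 0.092 over 7 pairs. Across genotypes, each library correlated best with one of the same number, and for 7 of 10 that one also shared the labelled sex. The number alone was not fitted as a block, so a grouping by number remains possible. Ptprc changed direction without Usp7 cKO replicate 5 (0.02; -0.11 to 0.02 with each library left out in turn). Among other genes, so did Mrc1 without the libraries of discordant sex (-0.05), Lcn2 without Usp7 cKO replicate 2 (-0.07 to 0.40 over single libraries left out), Hbb-bt by edgeR (-0.02) and DESeq2 (-0.03), and Cnp after rescaling and without Usp7 WT replicate 1 (-0.00 in both, and up to 0.12 with another library left out). Genes of the other lists called lower numbered 25 in the fit reported, 43 after rescaling, 52 by edgeR and 53 by DESeq2, and those called higher 19, 29 by edgeR and 11 without the libraries of discordant sex. Members with a bin usage call went from 0 to 1 at a mean of at least 1 read. Relative to the homeostatic group, the middle log2 level of the group gave 0.33 in place of -0.00 by sums for lysosomal members, where the middle gene is Cd68 in all 10 libraries, so that this value describes Cd68 and not the group, and 0.28 in place of 0.38 by sums for immunoreceptor members, where the middle gene is Fcgr3 or Fcer1g. The cause of the other differences was not tested. With 5 libraries a group, the standard error of the log2 change was largest for Cd14 (0.204), Lyz2 (0.199) and Tlr2 (0.187) among the members.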
